A study of Homo sapiens with 16 samples.

Results

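The genes described here encode histone variants that lie outside the replication-dependent histone clusters: the linker histone gene H1-10, the H2A variant genes H2AX, H2AZ1, H2AZ2 and H2AJ, the H3.3 gene H3-3A, and the macroH2A genes MACROH2A1 and MACROH2A2. They were followed in SAOS cells given the retinoblastoma protein RB, SMYD2, an enzyme that methylates lysines of RB among other proteins, or both. The members are all probe sets of the array whose single gene symbol in the platform annotation is one of these 8 genes, which gave 24 probe sets of 54675, for 8 genes of 19775. MACROH2A1 had 7 probe sets, H2AX, H2AZ2 and H2AJ had 4 each, H2AZ1 had 2, and H1-10, H3-3A and MACROH2A2 had 1 each. A further 8 probe sets name H3-3A beside other genes and were not used, so H3-3A rests on 1 probe set.

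Most histone protein of a dividing cell is made in S phase from clustered genes whose messages end in a stem-loop in place of a poly(A) tail. Histone variants are mostly made from single genes with polyadenylated messages, and dedicated chaperones place them into chromatin outside S phase as well. RB holds back the E2F transcription factors, which drive genes of DNA replication, and SAOS cells lack functional RB.

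RNA of SAOS, an established human osteosarcoma line, was hybridised to 16 arrays of the Affymetrix U133 Plus 2.0 design, 4 per group. Transfection was transient: the RB plus SMYD2 cells received RB of human and SMYD2 of mouse origin, the RB cells the human RB alone and the SMYD2 cells the mouse SMYD2 alone, while control cells were left untransfected. No group with an empty vector is named in the labels, so transfection and construct cannot be told apart in comparisons with control. Replicates are numbered 1, 3, 4 and 5 in every group, and an array is called here by that number. All groups are 1 cell line, and nothing says whether arrays of a group hold separate cultures. The p-values therefore reflect only how much these arrays differ, which may be technical. Values are log2 signals, differences are on the log2 scale, and a level of one probe set cannot be set against that of another.

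The promoters of H2AX, H2AZ1 and H2AZ2 are shown because these genes fell together with RB, that of H1-10 because it also fell, and that of H2AJ because it did not pass the test. The sequences are RefSeq windows of 250 bases before and 50 after the annotated start, build GRCh38.p14, written 5′ to 3′ on the strand of the gene. Capitals mark 3 motifs on either strand. The CCAAT box reads CCAAT, and on the other strand it reads ATTGG. The CHR element was searched as TTTGAA, which on the other strand is TTCAAA, and also as TTCGAA. The TATA box was searched as TATAAA.
H2AX promoter, chr11:119095416-119095715, minus strand: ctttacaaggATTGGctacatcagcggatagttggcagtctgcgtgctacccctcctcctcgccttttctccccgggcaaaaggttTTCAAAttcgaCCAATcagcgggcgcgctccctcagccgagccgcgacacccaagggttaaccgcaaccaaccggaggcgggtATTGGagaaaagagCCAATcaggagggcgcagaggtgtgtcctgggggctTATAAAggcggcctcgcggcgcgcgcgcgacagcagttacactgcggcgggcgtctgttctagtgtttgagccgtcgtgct
H2AZ1 promoter, chr4:99950226-99950525, minus strand: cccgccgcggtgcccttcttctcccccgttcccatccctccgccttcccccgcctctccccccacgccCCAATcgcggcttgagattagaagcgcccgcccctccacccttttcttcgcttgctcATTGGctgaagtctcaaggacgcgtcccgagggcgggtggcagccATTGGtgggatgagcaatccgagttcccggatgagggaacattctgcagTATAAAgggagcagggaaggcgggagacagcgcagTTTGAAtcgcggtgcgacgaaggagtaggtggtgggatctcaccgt
H2AZ2 promoter, chr7:44848038-44848337, minus strand: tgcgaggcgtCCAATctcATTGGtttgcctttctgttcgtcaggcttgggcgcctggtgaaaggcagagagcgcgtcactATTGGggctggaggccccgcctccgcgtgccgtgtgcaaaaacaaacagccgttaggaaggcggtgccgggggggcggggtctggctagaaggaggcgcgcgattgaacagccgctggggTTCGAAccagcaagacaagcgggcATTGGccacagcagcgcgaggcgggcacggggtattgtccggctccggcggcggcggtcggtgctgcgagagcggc
H1-10 promoter, chr3:129316237-129316536, minus strand: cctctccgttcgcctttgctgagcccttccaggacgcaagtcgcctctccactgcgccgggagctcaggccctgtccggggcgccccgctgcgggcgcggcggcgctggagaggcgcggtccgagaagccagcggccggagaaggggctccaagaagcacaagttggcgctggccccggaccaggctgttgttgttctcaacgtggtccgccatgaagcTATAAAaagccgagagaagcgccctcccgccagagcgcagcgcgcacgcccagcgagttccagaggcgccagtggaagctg
H2AJ promoter, chr12:14774155-14774454, plus strand: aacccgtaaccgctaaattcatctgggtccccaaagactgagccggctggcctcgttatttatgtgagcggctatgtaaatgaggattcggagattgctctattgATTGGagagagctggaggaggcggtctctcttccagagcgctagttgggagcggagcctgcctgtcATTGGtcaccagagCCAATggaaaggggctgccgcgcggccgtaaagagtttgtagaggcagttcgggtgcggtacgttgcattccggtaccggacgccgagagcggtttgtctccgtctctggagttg

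Each of the H2AX, H2AZ1 and H2AZ2 windows held 1 CHR match, at -164 to -159, 5 to 10 and -50 to -45 relative to the start. The windows of the other members, of which H3-3A has 4 and MACROH2A1 has 2, held no CHR match. Of all 35116 promoter windows of this length, 16.4% held a CHR match and 6.38% held CHR together with CCAAT. That box, with or without CHR, was held by 34.6% of windows, and it stood 4 times in the H2AX window, 4 times in that of H2AZ2, and 3 times each in those of H2AZ1 and H2AJ. The TATA box stood at -31 to -26 in H1-10, H2AX and H2AZ1. Anywhere in the window and on either strand, it was held by 11.5% of all windows, and the share at that position was not counted. None of the members' windows held a strict E2F site on either strand, searched as TTTCCCGC, as TTTGGCGC, as TTTCGCGC and as TTTGCCGC, which 3.31% of all windows held. H3-3A held CCAAT once in each of 3 windows and MACROH2A1 held it 2 times in 1 window, and no matches in these windows overlapped each other. The motifs were chosen with the members' results known, and a match is a description of the letters only.

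Of 8 osteoblast markers measured, SPP1 had a mean signal of 5.62 and the other 7 had 10.03 to 13.54. The 10 markers of leukocytes, endothelium, epithelium and neural cells ranged from 3.82 in PTPRC to 9.74 in KRT18, with CD3E at 5.72, PECAM1 at 6.24, GFAP at 6.08 and EPCAM at 9.40. Probe sets differ in their own brightness and carry no detection call, so these levels do not show which markers the cells express. The brighter RB1 probe set read 8.67 ± 0.90 in RB plus SMYD2, 7.70 ± 0.34 in RB, 6.85 ± 0.17 in SMYD2 and 6.48 ± 0.32 in control (SD, n = 4 each). The other RB1 set read 3.51 in RB plus SMYD2, 3.44 in RB, 3.44 in SMYD2 and 3.49 in control, and did not show the construct. Human SMYD2 probe sets may not bind the mouse transcript and check nothing. The 3′ minus 5′ signal of ACTB, a measure of RNA integrity, was 3.53 on SMYD2 array 1 and 2.46 on control array 1, and 0.54 to 1.63 on the other arrays. The same measure for GAPDH was 0.16 on SMYD2 array 1 and -0.0063 to 0.10 on the others. Control array 1, at 0.06, lay inside that range. Member calls that change when SMYD2 array 1 or control array 1 is left out are given beside the results.

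Transcripts of H2AX, H2AZ1, H2AZ2 and H1-10 were lower in cells that received RB, and no member was called higher. Averaged over cells with and without SMYD2, 8 arrays with RB against 8 without, H2AX fell by 0.61 ± 0.05 in its brightest probe set (SE, 1.53-fold), H1-10 by 0.49 ± 0.10, H2AZ2 by 0.35 ± 0.06 and H2AZ1 by 0.25 ± 0.04. MACROH2A1 differed by -0.16 ± 0.04, and H2AJ, H3-3A and MACROH2A2 did not pass the test. The test was limma over all 54675 probe sets with Benjamini-Hochberg adjustment and a threshold of 0.05. It called 10 of the 24 member probe sets lower and 0 higher, where 3.64% of all probe sets were called lower and 3.36% higher. In 7 of the member probe sets all arrays with RB lay below all arrays without it, which held for 1.49% of all probe sets. The members' median difference was -0.17 and that of all probe sets was -0.0002. By brightest probe set, 5 of the 8 genes were called lower, against 5.41% of 19775 genes. In these bulk samples, fewer cells that express a gene and less of its RNA per cell cannot be told apart. The comparisons below share arrays with this average.

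**Figure D1:**
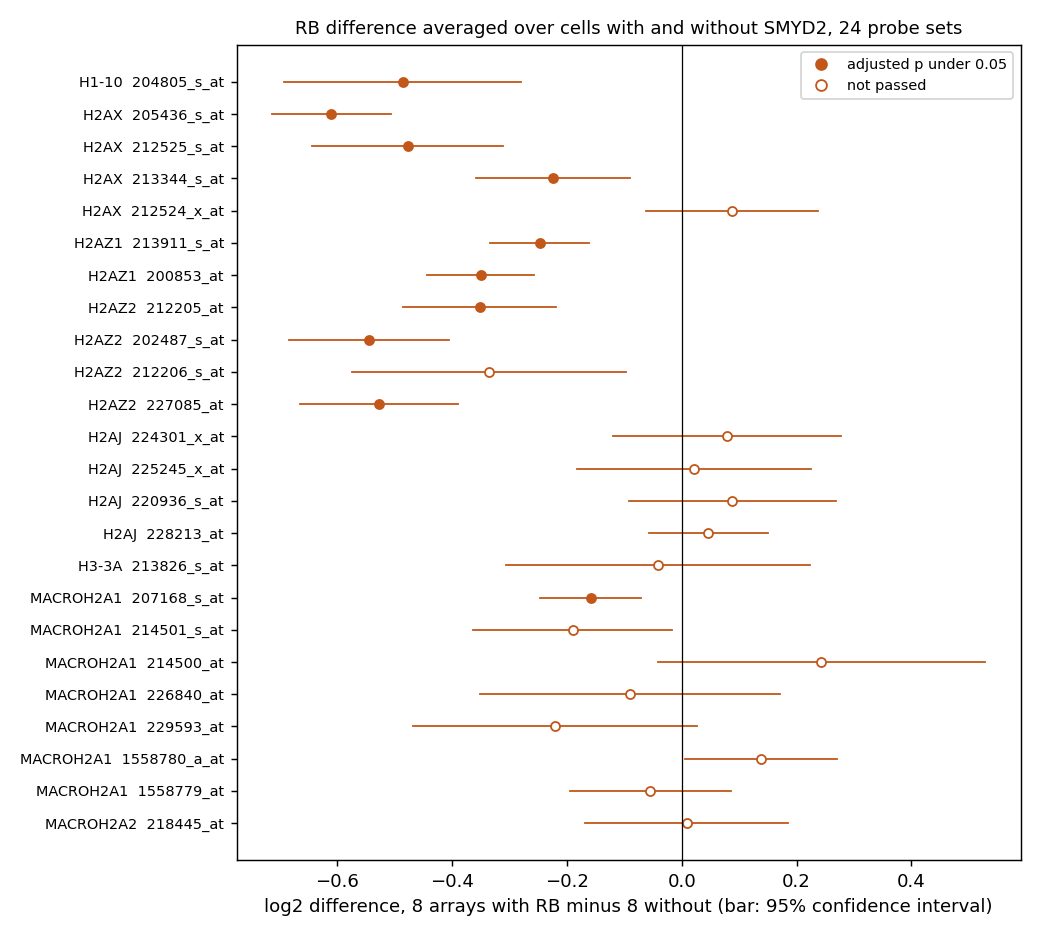
Difference between the 8 arrays with RB and the 8 without, on the log2 scale (horizontal axis), for all 24 member probe sets, grouped by gene; points are limma estimates, bars are 95% confidence intervals, and filled points passed an adjusted p of 0.05. The 10 filled points belong to H1-10, H2AX, H2AZ1, H2AZ2 and MACROH2A1, and all lie left of 0.

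H2AX is the H2A variant whose tail is phosphorylated in the chromatin around DNA breaks. Its brightest probe set, 205436_s_at, read 10.81, 10.90, 10.82 and 10.89 on the RB plus SMYD2 arrays 1, 3, 4 and 5, and 10.99, 11.08, 11.04 and 11.17 on the RB arrays. It read 11.48, 11.47, 11.65 and 11.58 on the SMYD2 arrays and 11.47, 11.60, 11.66 and 11.65 on the control arrays. The 8 arrays with RB were all below the 8 without (exact permutation test, two-sided, p = 0.000155, the least possible with 8 arrays against 8), and the difference had the same sign at all 4 replicate numbers, between -0.73 and -0.55. The limma adjusted p was 6.87e-07. The order of the group means was RB plus SMYD2, RB, SMYD2, control, and only SMYD2 and control lay within each other's spread.

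The other H2AX probe sets differed in size and sign. 212525_s_at fell by 0.48 ± 0.08 (limma adjusted p = 0.00086) and 213344_s_at by 0.22 ± 0.06 (limma adjusted p = 0.0402), while 212524_x_at, with a mean signal of 5.04, differed by 0.09 ± 0.07 and did not pass. Without SMYD2 array 1, 213344_s_at did not pass (limma adjusted p = 0.0572), nor without control array 1 (0.0733). Over all members, the RB average called 10 sets with all arrays. It called 9 without RB plus SMYD2 array 1, RB arrays 1, 4 or 5, SMYD2 array 3 or control array 3. Every brightest set kept its call there, so a set that was not a gene's brightest lost it. Among such called sets, 213344_s_at had the adjusted p nearest the threshold. The mean of the 4 H2AX sets fell by 0.31 (limma adjusted p = 0.000125). The suffixes _s_at and _x_at mark sets whose probes can bind more than 1 transcript, and every H2AX set carries such a suffix.

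H2AZ1 and H2AZ2 encode a pair of near-identical H2A.Z proteins, which the SRCAP and EP400 complexes place beside gene starts. H2AZ1 213911_s_at read 13.71, 13.83, 13.62 and 13.53 in RB plus SMYD2, and 13.83, 13.85, 13.69 and 13.72 in RB. It read 13.93, 13.98, 13.92 and 13.92 in SMYD2, and 14.05, 13.96, 14.02 and 13.98 in control. Each array with RB was below each array without it, although the RB plus SMYD2 and RB arrays overlapped. The second H2AZ1 set, 200853_at, fell by 0.35 ± 0.04 (limma adjusted p = 6.38e-05) and again separated the arrays with RB from those without.

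H2AZ2 212205_at, the brightest of its 4 sets, read 11.53, 11.58, 11.35 and 11.27 in RB plus SMYD2, and 11.72, 11.74, 11.37 and 11.47 in RB. It read 11.73, 11.84, 11.74 and 11.85 in SMYD2, and 12.01, 11.93, 11.86 and 11.88 in control. RB array 3 lay above SMYD2 array 1, so the arrays with and without RB overlapped in this set. The drop was larger in 202487_s_at, at 0.54 ± 0.07, and in 227085_at, at 0.53 ± 0.07, and neither overlapped. The remaining set, 212206_s_at, differed by -0.33 ± 0.11 and did not pass (limma adjusted p = 0.0932), with SMYD2 array 1 its lowest value at 9.31. It passed with the replicate number as a block (limma adjusted p = 0.0192) and without SMYD2 array 1 (0.0016). The brightest sets of H2AZ1 and H2AZ2 were lower with RB at all 4 replicate numbers, with differences from -0.33 to -0.13 and from -0.50 to -0.23.

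H1-10 encodes a linker histone, which binds the DNA between nucleosomes. Its single probe set, 204805_s_at, read 10.91, 10.68, 10.78 and 10.62 in RB plus SMYD2, and 10.96, 10.57, 10.94 and 11.06 in RB. It read 11.78, 11.22, 11.22 and 11.15 in SMYD2, and 11.53, 11.18, 11.14 and 11.18 in control. All arrays with RB were below all arrays without it. The highest readings were on array 1 of SMYD2 and array 1 of control, the arrays with the largest ACTB 3′ minus 5′ signal. Array 1 was also the highest of RB plus SMYD2, where that signal was 1.17, but not of RB. The part of RNA quality in these readings was not tested beyond leaving arrays out. Without SMYD2 array 1 the average RB difference was -0.41, its smallest with any array left out, and it passed (limma adjusted p = 0.0023), as it did with each of the other 15 arrays left out.

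**Figure D2:**
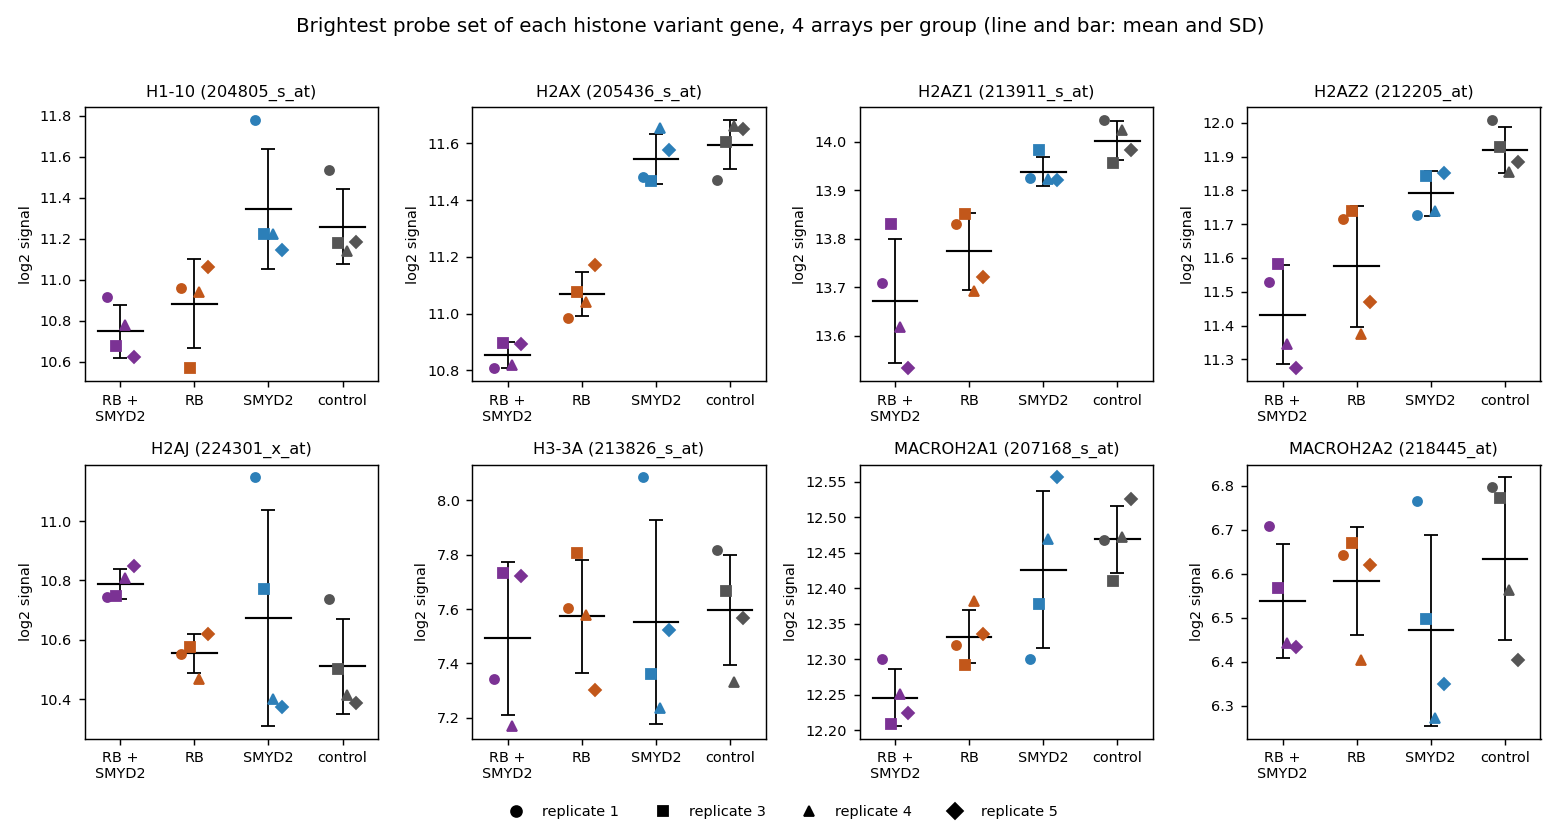
Log2 signal (vertical axis) of the brightest probe set of each member gene in the 4 groups, 4 arrays each; the marker shape gives the replicate number, and the line and bar give the group mean and SD. In H2AX all 8 arrays with RB sit at 11.17 or below and all 8 without at 11.47 or above, whereas in H2AJ, H3-3A and MACROH2A2 the groups with and without RB overlap.

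The macroH2A proteins carry a macro domain behind their H2A part, and MACROH2A1 has splice forms that differ in it. MACROH2A1 207168_s_at read 12.30, 12.21, 12.25 and 12.22 in RB plus SMYD2, and 12.32, 12.29, 12.38 and 12.34 in RB. It read 12.30, 12.38, 12.47 and 12.56 in SMYD2, and 12.47, 12.41, 12.47 and 12.53 in control. SMYD2 arrays 1 and 3 lay among the arrays with RB, and SMYD2 arrays 4 and 5 lay among or above the control arrays. The average RB difference of -0.16 passed (limma adjusted p = 0.0267), but lost its call with any of 8 of the 16 arrays left out: RB plus SMYD2 arrays 3, 4 and 5, RB array 3, SMYD2 arrays 4 and 5, and control arrays 4 and 5 (highest limma adjusted p = 0.0644, with control array 5 left out). The mean of all 7 MACROH2A1 sets differed by -0.05 and did not pass (limma adjusted p = 0.718). The other 6 sets did not pass on their own. They ranged from -0.22 ± 0.12 in 229593_at to 0.24 ± 0.14 in 214500_at, and 214501_s_at, at -0.19 ± 0.08, passed without SMYD2 array 1 (limma adjusted p = 0.0060). MACROH2A2 218445_at differed by 0.01 ± 0.08, with a 95% confidence interval of -0.17 to 0.19.

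H2AJ, an H2A variant known for accumulating in senescent human cells, differed by 0.08 ± 0.09 in 224301_x_at (95% confidence interval -0.12 to 0.28). That set read 10.75, 10.75, 10.81 and 10.85 in RB plus SMYD2, and 10.55, 10.58, 10.47 and 10.62 in RB. It read 11.15, 10.77, 10.40 and 10.37 in SMYD2, and 10.74, 10.50, 10.41 and 10.39 in control. The 4 RB plus SMYD2 arrays were above the 4 RB arrays and above the 4 control arrays, and the SMYD2 arrays ran from below all RB arrays to above all RB plus SMYD2 arrays. The other H2AJ sets differed by 0.02 to 0.09 and did not pass. As in H1-10, array 1 was the highest of SMYD2 and of control, and without SMYD2 array 1 the difference was 0.16 and did not pass (limma adjusted p = 0.194). H3-3A, 1 of the genes for H3.3, the H3 variant that replaces H3 in transcribed chromatin, read 7.17 to 7.73 in RB plus SMYD2, 7.30 to 7.81 in RB, 7.24 to 8.08 in SMYD2 and 7.33 to 7.82 in control. The ranges overlapped throughout, and its average RB difference of -0.04 ± 0.13 had a 95% confidence interval of -0.31 to 0.22.

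RB against control asked what RB does in cells without added SMYD2. H2AX 205436_s_at fell by 0.53 ± 0.07 (limma adjusted p = 0.0011), H2AZ2 202487_s_at by 0.41 ± 0.09 (0.0399), H2AZ2 227085_at by 0.42 ± 0.09 (0.0319) and H2AZ1 200853_at by 0.28 ± 0.06 (0.0382). These 4 of the 24 members were called lower and 0 higher, where 0.662% of all probe sets were called lower, and the median difference was -0.16, against -0.0014 for all probe sets. In 10 members the RB arrays were all below the control arrays, which held for 3.71% of all probe sets. The counts moved with single arrays, that of all probe sets too, which ran from 234 to 1195 with 1 array left out, against 590 with all arrays. The members' count was 7 without SMYD2 array 1, 2 without RB plus SMYD2 arrays 1 or 4, RB array 3, SMYD2 array 3 or control array 1, and 1 without RB arrays 1, 4 or 5 or control arrays 3, 4 or 5, while H2AX 205436_s_at passed with each of the 16 arrays left out. The sets gained without SMYD2 array 1 were H2AX 212525_s_at (limma adjusted p = 0.0310), H2AZ1 213911_s_at (0.0401) and H2AZ2 212205_at (0.0469). Without control array 1, H2AX 212525_s_at was gained (0.0359), and H2AZ1 200853_at (0.0932), H2AZ2 202487_s_at (0.10) and H2AZ2 227085_at (0.0868) were lost. With the replicate number as a block 8 members passed, the added ones being H1-10 204805_s_at (limma adjusted p = 0.0466), H2AX 212525_s_at (0.0287), H2AZ1 213911_s_at (0.0161) and H2AZ2 212205_at (0.0111).

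RB plus SMYD2 against SMYD2 asked the same in cells that also received SMYD2, and shares no array with RB against control. H2AX 205436_s_at fell by 0.69 ± 0.07 (limma adjusted p = 1.53e-05), H2AZ2 202487_s_at by 0.68 ± 0.09 (0.000321), H2AZ2 227085_at by 0.63 ± 0.09 (0.000554), H1-10 by 0.60 ± 0.14 (0.0212) and H2AZ1 200853_at by 0.42 ± 0.06 (0.000576). Here 8 of the 24 members were called lower and 0 higher, where 2.12% of all probe sets were called lower. H2AX 212525_s_at, H2AZ1 213911_s_at and H2AZ2 212205_at were the others. The members' median difference was -0.16, against 0.0016 for all probe sets, and in 9 members the arrays of the groups did not overlap, against 4.84% of all probe sets. Without RB plus SMYD2 array 4 or 5, 4 members were called, and of all probe sets 1083 and 1055, against 1914 with all arrays. H1-10 lost its call without RB plus SMYD2 arrays 3, 4 or 5, H2AZ1 213911_s_at without RB plus SMYD2 arrays 4 or 5, and H2AZ2 212205_at without those or SMYD2 arrays 3, 4 or 5. All 3 also lost it when only the 8 arrays compared were fitted (limma adjusted p = 0.0742, 0.0981 and 0.0933). Without SMYD2 array 1 the H1-10 difference was -0.45 and passed (0.0328), and H2AZ2 212206_s_at (0.0068) and MACROH2A1 207168_s_at (0.0215) gained a call.

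**Figure D3:**
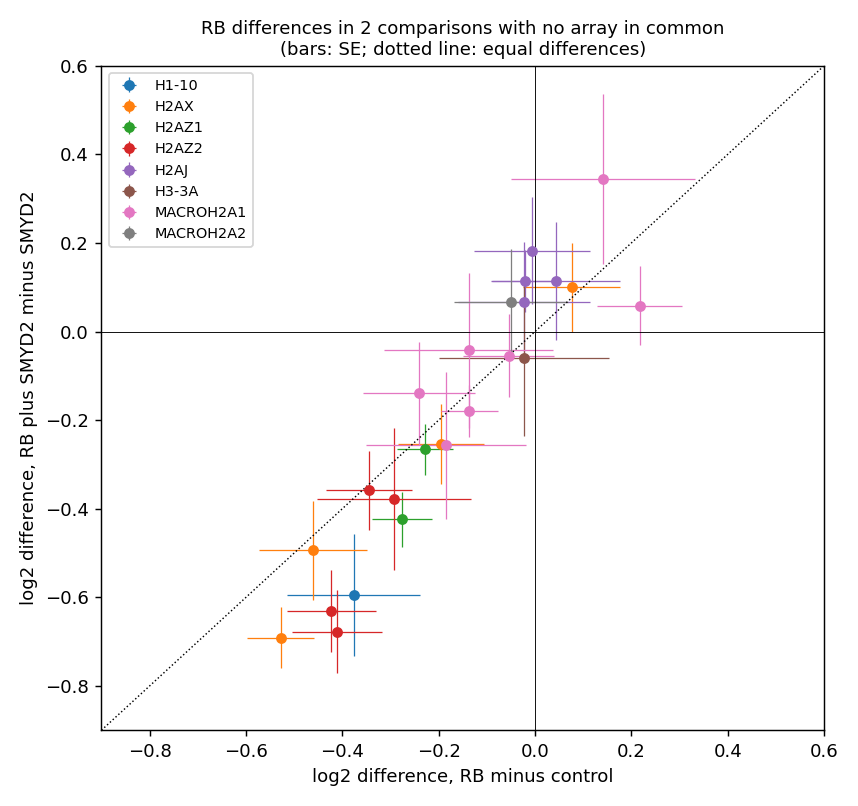
RB minus control (horizontal axis) and RB plus SMYD2 minus SMYD2 (vertical axis) for the 24 member probe sets, as log2 differences coloured by gene, with SE bars and a dotted line where both are equal. The H2AX, H2AZ1, H2AZ2 and H1-10 sets lie below 0 on both axes, except H2AX 212524_x_at, and the H2AJ, H3-3A and macroH2A sets lie on either side of 0.

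RB plus SMYD2 against control called 8 members lower and 0 higher, where 2.12% of all probe sets were called lower. The median difference of the members was -0.16, against 0.01 for all probe sets. H2AX 205436_s_at fell by 0.74 ± 0.07 (limma adjusted p = 6.53e-06), H2AZ2 212205_at by 0.49 ± 0.09 (0.0038) and H2AZ1 213911_s_at by 0.33 ± 0.06 (0.0027). MACROH2A1 207168_s_at fell by 0.22 ± 0.06 (0.0455) and lost its call with 14 of the 16 arrays left out in turn (highest limma adjusted p = 0.147, with control array 5 left out), the exceptions being SMYD2 arrays 1 and 5. That call was also lost after renewed quantile normalization (0.0954), in the fit without a trend of variance with level (0.0620) and in the mean of the 7 sets, which differed by -0.04 (0.893). H1-10 differed by -0.51 ± 0.14 and missed the threshold (limma adjusted p = 0.0503), and it passed with the replicate number as a block (0.0037), without SMYD2 array 1 (0.0074) and without RB array 3 (0.0344). With 14 of the 16 arrays left out in turn it did not pass. It passed with only the arrays compared (0.0142), median centring (0.0360) and array weights (0.0058). It also passed among sets with a mean of at least 5 (0.0381) and with 1 set per gene (0.0304). H2AZ2 212206_s_at missed the threshold too (0.0695) and passed without SMYD2 array 1 (0.0041). RB against SMYD2 compared transfected cells on both sides. It called 3 members lower and 0 higher, where 0.671% of all probe sets were called lower, and the median difference was -0.14, against -0.01 for all probe sets. They were H2AX 205436_s_at, lower by 0.48 ± 0.07 (limma adjusted p = 0.0019), H2AZ2 202487_s_at, by 0.50 ± 0.09 (0.0115), and H2AZ2 227085_at, by 0.44 ± 0.09 (0.0233), and without RB array 4 the count was 1, with 230 of all probe sets called, against 670 with all arrays. Without SMYD2 array 1, H2AX 212525_s_at was gained (limma adjusted p = 0.0485), and the H1-10 difference, which did not pass, was -0.31, against -0.46 with all arrays. In 8 members the RB arrays were all below the SMYD2 arrays, against 3.47% of all probe sets. In RB plus SMYD2 against control this held for 12 members, against 5.75%, and 2 H2AJ sets, 224301_x_at and 228213_at, were above control on all arrays, against 5.33%. Both comparisons share arrays with those above.

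RB plus SMYD2 against RB asked what SMYD2 adds to RB. No member passed: 0 of 24 members and 1 of 54675 probe sets, or 0.00183%, were called by limma, and at an unadjusted p under 0.05 there were 3 members and 3.88% of all probe sets. H2AX 205436_s_at differed by -0.21 ± 0.07 (95% confidence interval -0.36 to -0.07, limma adjusted p = 0.9998), was lower at all 4 replicate numbers and did not overlap between the groups (exact permutation test, two-sided, p = 0.0286, the least possible with 4 arrays against 4). Both H2AZ1 sets, all 4 H2AZ2 sets and MACROH2A1 207168_s_at were also lower at all 4 numbers. The share of all probe sets with the same sign at all 4 numbers was not counted, so these signs do not set the members apart. H2AZ1 200853_at differed by -0.17 ± 0.06, but the groups overlapped (exact two-sided permutation p = 0.0857). H2AJ 224301_x_at differed by 0.23 ± 0.13, 225245_x_at by 0.24 ± 0.14 and 228213_at by 0.15 ± 0.07, and in each of these 3 sets the RB plus SMYD2 arrays were all above the RB arrays. The remaining H2AJ set overlapped and was also higher at all 4 numbers. Groups without overlap were found in 1 member set that was lower and 3 that were higher, against 1.55% and 1.73% of all probe sets. The RB1 signal was itself higher in RB plus SMYD2 than in RB, as given above, and its part in these differences was not tested.

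SMYD2 against control called 0 of 24 members and 0 of 54675 probe sets by limma (0%), with 1 member and 3.06% of all probe sets at an unadjusted p under 0.05. That member was MACROH2A1 1558780_a_at, a dim set that differed by 0.19 ± 0.09. The brightest sets differed by -0.05 ± 0.07 in H2AX (95% confidence interval -0.20 to 0.09), -0.06 ± 0.06 in H2AZ1 (-0.19 to 0.06), -0.13 ± 0.09 in H2AZ2 (-0.32 to 0.06) and 0.08 ± 0.14 in H1-10 (-0.21 to 0.38). H2AZ2 212205_at was below control on all 4 SMYD2 arrays, which held for 0.616% of all probe sets, and the other H2AZ2 sets overlapped. The gap was narrow, with the highest SMYD2 array at 11.853 and the lowest control array at 11.855. Its exact two-sided permutation p of 0.0286 is the one that any set without overlap gives with 4 arrays against 4. By limma it did not pass (adjusted p = 0.998). The interaction, the RB difference with SMYD2 minus that without it, was called in 0 of 24 members and in 0.00183% of all probe sets, and 0 members had an unadjusted p under 0.05. Its largest size among members was -0.27 ± 0.13 in H2AZ2 202487_s_at (95% confidence interval -0.54 to 0.01), and in H2AX 205436_s_at it was -0.16 ± 0.10 (-0.37 to 0.04). Both intervals include 0, and with 4 arrays per group they do not show that the RB difference was equal with and without SMYD2.

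The machinery that handles the variants was read in the same RB average, with 1 probe set per gene and beside a background of 5.41% of 19775 genes called lower and 5.05% called higher. Of the 8 genes for the deposition of H3.3, 3 fell and 5 did not pass, with a median of -0.19, against 0.01 for all genes. ASF1B, a histone H3-H4 carrier of proliferating cells, fell by 0.81 ± 0.08, DAXX, the H3.3 chaperone of heterochromatin, by 0.33 ± 0.07 and ASF1A by 0.20 ± 0.06, while UBN1, a partner of HIRA, differed by -0.28 ± 0.17. Of 12 genes for the exchange of H2A.Z, 0 passed by limma and the median was -0.05. YEATS4, a subunit shared by H2A.Z-depositing complexes, differed by -0.39 ± 0.14, ANP32E, a chaperone that removes H2A.Z, by -0.28 ± 0.09, ZNHIT1 by 0.25 ± 0.08 and SRCAP by -0.22 ± 0.09.

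Of 13 genes for the phosphorylation of H2AX and its readers, 2 fell and 11 did not pass, with a median of -0.13. MDC1, which binds phosphorylated H2AX, fell by 0.43 ± 0.07 and BAZ1B, a kinase of its terminal tyrosine, by 0.36 ± 0.05. EYA2, of the phosphatases for that tyrosine, differed by -0.25 ± 0.13 and PRKDC, a kinase of the break response, by -0.23 ± 0.09. Among 6 genes tied to macroH2A splicing and function, HELLS, a chromatin remodeller, fell by 0.74 ± 0.14. The other 5 did not pass, with PARP1 at -0.20 ± 0.07, MBNL1 at -0.17 ± 0.09 and DDX5 at 0.17 ± 0.08. Of 3 further variants outside the clusters that have a probe set of their own, CENPA, the H3 variant of centromeres, fell by 0.66 ± 0.12, and H1-7 and H1-8 differed by -0.04 and -0.05.

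Genes for histone supply in replication and S phase genes follow. Of 13 genes for histone supply, most of them chaperones, 5 fell and 8 did not pass, with a median of -0.19: CHAF1A by 0.79 ± 0.09, CHAF1B by 0.60 ± 0.06, SSRP1 by 0.48 ± 0.11, NASP by 0.47 ± 0.05 and NPAT, a coactivator of replication-dependent histone genes, by 0.19 ± 0.05. All 13 S phase genes fell, with a median of -0.64, among them TK1 by 0.82 ± 0.10, CCNA2 by 0.80 ± 0.10, MCM7 by 0.79 ± 0.06 and RRM2 by 0.77 ± 0.11. Their mean signal was 10.41 ± 0.16 in RB plus SMYD2, 10.65 ± 0.07 in RB, 11.15 ± 0.05 in SMYD2 and 11.18 ± 0.02 in control (SD, n = 4 each). The brightest sets of H2AX, H2AZ1, H2AZ2 and MACROH2A1 had the same order of group means. What this has to do with the variants was not tested. Of 8 osteoblast markers 3 rose, COL1A1, SPP1 and SPARC, while COL1A2 had the largest difference, 0.91 ± 0.36, and did not pass. Of 10 markers of other cell types 0 were called by limma, with mean signals of 6.02 to 6.17 in RB plus SMYD2, 5.999 to 6.15 in RB, 5.99 to 6.13 in SMYD2 and 5.97 to 6.16 in control.

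Probe sets of several replication-dependent histone genes read higher with RB. Of 45 genes that the name pattern took, which include H2AC5P, H4C10P and H2BC12L, 13 rose, 1 fell and 31 did not pass, with a median of 0.08. The largest rise was 1.77 ± 0.20 in H2BC4, followed by H4C8 with 1.62 ± 0.15, H2BC21 with 1.46 ± 0.08 and H1-2, a linker histone gene, with 1.27 ± 0.16. H2AC16 fell by 0.61 ± 0.11. These genes are near copies of each other and their probe sets can share targets. Their messages mostly lack a poly(A) tail, as given above, and how fully the arrays read such messages was not tested. The rises are therefore of probe signal, and do not show that the genes' total message rose. H1-2 and H1-10 are both linker histone genes and were called in opposite directions.

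**Figure D4:**
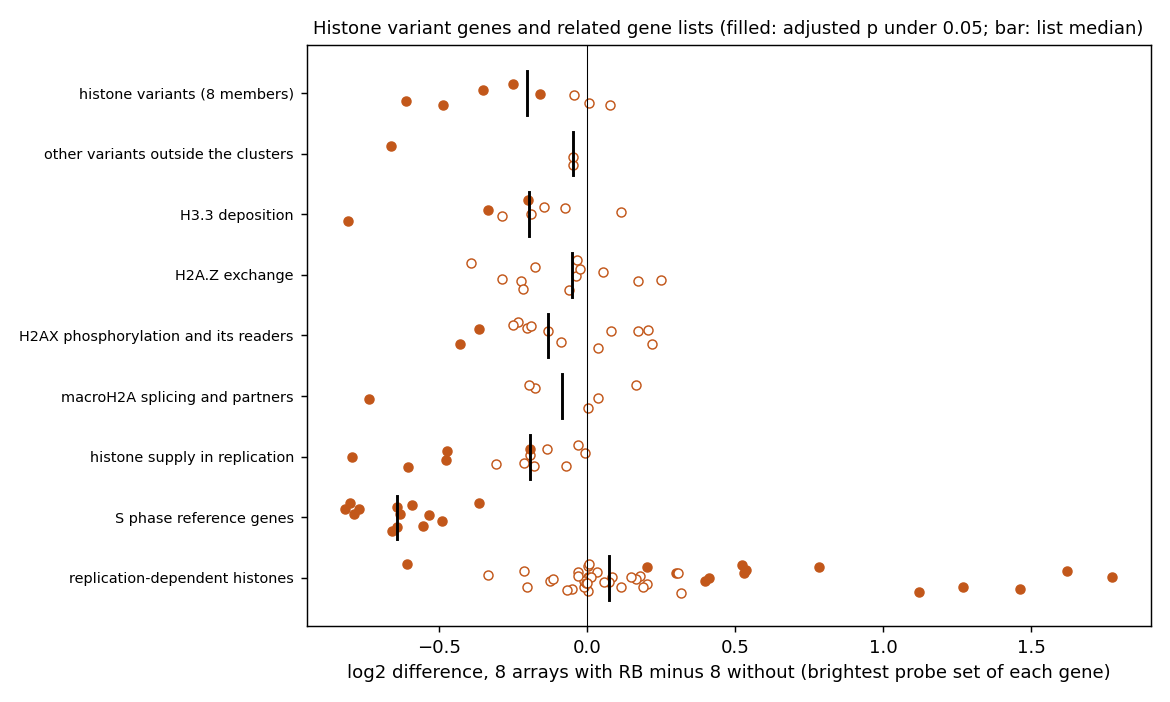
Difference between the 8 arrays with RB and the 8 without, on the log2 scale (horizontal axis), for the brightest probe set of each gene in the 8 members and 8 gene lists; filled points passed an adjusted p of 0.05, and bars are list medians. The member median of brightest sets lies below 0, all 13 S phase genes are filled and below 0, and the filled replication-dependent histone genes lie above 0 with 1 exception.

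The genes whose pattern was most like that of each member were taken from 9637 genes with a mean signal of at least 7, by Pearson correlation over the 16 arrays. The value after removing group means is given beside it, since arrays with and without RB stand apart. The 16 points share the group structure, the normalization and RNA quality. Between most groups, deviations from group means also correlated at a shared replicate number. Removing group means leaves this in, so the values within groups include it. For H2AX these were KIF22 (0.985, and 0.684 within groups), NSD2 (0.984 and 0.651) and POLA2 (0.983 and 0.793). For H2AZ1 they were GAS2L3 (0.978 and 0.924), PRR11 (0.975 and 0.921) and MAP3K20 (0.968 and 0.885), and for H2AZ2 they were GAS2L3 (0.963 and 0.918), PCNA (0.962 and 0.870) and CENPK (0.961 and 0.855). GAS2L3 headed both H2A.Z genes. H1-10 was most like HMGA1 (0.966 and 0.942), ITGB3BP (0.964 and 0.914) and RNF157 (0.959 and 0.908), and MACROH2A1 was most like CDCA7 (0.942 and 0.817). H2AJ was most like SYNGR1 (0.950 and 0.972), H3-3A like XRN1 (0.812 and 0.843) and MACROH2A2 like TEX264 (0.838 and 0.897). The mean of the 13 S phase genes correlated with H2AX at 0.955 over the 16 arrays and 0.05 within groups, and with H1-10 at 0.751 and -0.13. With H2AZ1 it correlated at 0.946 and 0.861, and with H2AZ2 at 0.916 and 0.795. For MACROH2A1 the values were 0.816 and 0.134, and for H2AJ -0.344 and -0.271. For H3-3A they were 0.103 and -0.043, and for MACROH2A2 0.063 and 0.230.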

How the data were processed

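The deposited values are log2 signals of 16 Affymetrix U133 Plus 2.0 arrays, made by the authors with RMA, per the submitters' processing notes, with no version given. RMA keeps no detection call, so a dim set may be background. Precision is limited by how many arrays there are. The genome build behind the probe annotation was not given in the sources used here, and probe-level values were not used. Probe sets were named from the platform annotation: 41097 of 54675 carry 1 gene symbol, 1801 several and 11777 none. The brightest probe set on average leads each gene. From each gene list other than the cell type markers, the 4 genes with the largest difference are named, plus any in a count of 5 or fewer. For each member the genes most like it in pattern are named.

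The members, lists and motifs were chosen with earlier results of these data known. limma 3.58.1 in R 4.3.3 fitted 1 mean per group over all 16 arrays (eBayes with trend), with p-values adjusted by Benjamini-Hochberg over all 54675 probe sets, and the code was tested on simulated data. Figures were drawn with matplotlib 3.10.9. Replicate numbers shared between groups may pair arrays: deviations from group means correlated above 0.1 at every shared number in 5 of 6 group pairs (lowest 0.124), but not between RB and SMYD2 (-0.06 to 0.31). Alternatives were a replicate block, the compared groups alone, median centring, renewed quantile normalization, array weights, no trend, a mean of at least 5, 1 set or the mean of sets per gene, no _x_at or _s_at sets, and each array left out.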

Additional observations from a re-analysis of the deposited data

Results flagged for a closer look

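In 96 groups of 4 arrays (24 probe sets in 4 groups), 6 held an array that stood apart from the other 3 by Dixon's ratio, and chance alone gives about 1 in 20. H1-10 204805_s_at read 11.78 on SMYD2 array 1, where the other SMYD2 arrays read 11.15 to 11.22. It read 11.53 on control array 1, where the other control arrays read 11.14 to 11.18. These arrays had the highest ACTB 3′ minus 5′ signals, 3.53 and 2.46, and the part of RNA quality in the H1-10 readings was not tested. H2AZ1 213911_s_at read 13.98 on SMYD2 array 3, where the others read 13.92 to 13.93. H2AJ 220936_s_at read 5.54 on RB array 5, where the others read 5.24 to 5.26. MACROH2A1 226840_at read 8.28 on RB array 1, where the others read 7.47 to 7.60. MACROH2A1 1558779_at, a dim set, read 4.11 on control array 5, where the others read 3.62 to 3.66.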

How the results depend on the processing

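The brightest H2AX set kept its direction and call in the RB average, RB against control and both RB plus SMYD2 comparisons with control and with SMYD2 under each alternative that keeps this set. Leaving out _x_at and _s_at sets removes every H2AX set, and the mean of the 4 H2AX sets fell in the same comparisons (highest limma adjusted p = 0.0195). In RB against SMYD2 it lost its call when only the arrays of those groups were fitted (limma adjusted p = 0.0637). Member counts moved by over 1.5 times as follows. RB against control, with 4 members called, had 8 with a replicate block, 2 after renewed quantile normalization, 7 with array weights and 1 without _x_at or _s_at sets. RB plus SMYD2 against SMYD2, with 8, had 4 with only the compared arrays, 4 with 1 set per gene and 3 without _x_at or _s_at sets. RB plus SMYD2 against control, with 8, had 5 with 1 set per gene and 3 without _x_at or _s_at sets. RB against SMYD2, with 3, had 6 with a replicate block, 0 with only the compared arrays, 5 with array weights, 1 with 1 set per gene and 1 without _x_at or _s_at sets. The RB average, with 10, had 5 with 1 set per gene and 3 without _x_at or _s_at sets. Settings with 1 set per gene or without _x_at or _s_at sets tested 8 and 10 members instead of 24, and for the other settings the cause was not tested. With each array left out in turn the counts ran from 1 to 7, from 4 to 10, from 7 to 10, from 1 to 4 and from 8 to 11 in that order, and stayed at 0 in the other 3 comparisons. The replicate block gave 8, 10 and 11 members in RB plus SMYD2 against SMYD2, in RB plus SMYD2 against control and in the RB average. In RB against SMYD2, H1-10 passed with the block (limma adjusted p = 0.0140). Deviations from group means at shared numbers correlated from -0.06 to 0.31 between these groups. Beside these and the calls given with the block above, the block changed no call of a brightest set.

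Over all probe sets, the block raised the calls to 1801 from 590 in RB against control, 4007 from 1914 in RB plus SMYD2 against SMYD2, 3807 from 1930 in RB plus SMYD2 against control, 2353 from 670 in RB against SMYD2 and 6696 from 3827 in the RB average. Array weights gave 2445, 3453, 4877, 1604 and 6752 in that order, and the compared arrays alone gave 838 in RB plus SMYD2 against SMYD2 and 121 in RB against SMYD2. With array weights H2AJ 224301_x_at was called higher in RB plus SMYD2 against control, at 0.34 (limma adjusted p = 0.0257).

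Some differences that no setting called changed sign. With the mean of a gene's sets, H2AJ was -0.0016 in RB against control, and MACROH2A1 was 0.02 in RB plus SMYD2 against RB, 0.0023 in SMYD2 against control and 0.0177 in the interaction. With array weights, H2AJ was 0.0187 in RB against SMYD2, and H3-3A was 0.0335 in RB against control, 0.0059 in RB plus SMYD2 against SMYD2 and 0.0197 in the RB average. With single arrays left out, H3-3A ran from -0.11 to 0.068 in RB against control, -0.16 to 0.12 in RB plus SMYD2 against SMYD2, -0.19 to 0.0035 in RB plus SMYD2 against control, -0.084 to 0.20 in RB against SMYD2, -0.17 to 0.027 in RB plus SMYD2 against RB, -0.22 to 0.061 in SMYD2 against control, -0.14 to 0.14 in the interaction and -0.094 to 0.048 in the RB average. MACROH2A2 ran from -0.13 to 0.011 in RB against control and -0.030 to 0.058 in the RB average. H1-10 ran from -0.061 to 0.18 in SMYD2 against control, and H2AJ from -0.22 to 0.038 in RB against SMYD2. In the interaction H2AJ ran from -0.029 to 0.23, H2AZ1 from -0.091 to 0.0085 and H2AZ2 from -0.081 to 0.040. Of 1600 repeats of the brightest sets' differences, 1481 kept direction and side of the threshold, 40 lost a call, 28 gained a call and 51 changed sign.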
